A study of Mus musculus with 18 samples.

Results

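Mouse chromosome 11 is described here by the chromatin loops and domains that lie on it in erythroblasts. Every loop and every domain that the lists place on chromosome 11 was taken. That gave 1574 of the 20926 loops and 696 of the 13483 domains of the whole series. The chromosome was chosen by its measured loop density, 13.2 loops per Mb, the highest of the 19 autosomes. The next autosome was chromosome 19 with 12.3 loops per Mb, and the other 18 autosomes had a median of 8.11 loops per Mb and a minimum of 6.09. Loop density chose the chromosome, so it and every other count made from the same loops are given as descriptions with no test.

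The lists come from 18 Micro-C libraries of G1E-ER4 cells, a mouse erythroblast line in which GATA1, a main transcription factor of red cell formation, is linked to a hormone receptor domain. In the subline used, LDB1-AID, the bridging protein LDB1 is joined to an auxin-inducible degron, a tag that lets auxin trigger loss of the protein. All samples carry this tag. The labels give 9 samples left untreated and 9 samples kept in auxin for 4 h. Each list was made once for the whole series and holds coordinates alone, so nothing in it separates the treatments, and read depth per sample is unknown here. The lists hold no expression values, and the labelled cell type could not be checked against marker genes.

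Micro-C cuts chromatin between nucleosomes and ligates the ends of fragments that were neighbours in the nucleus, so that sequencing reports which positions meet. The 2 anchors of a loop are positions whose contacts exceed those of the sequence around them. Loops form where cohesin, a ring that extrudes DNA, is halted by the factor CTCF, and also where enhancers and promoters are held together, in erythroid cells partly by LDB1 with GATA1 and its partners. A domain is a stretch whose positions meet each other more than they meet the outside, and smaller domains lie nested in larger ones. Chromosome 11 of the mouse is known to be gene-rich. It carries genes of red cell function, among them the alpha-globin genes and Slc4a1, which encodes the band 3 anion exchanger of the red cell membrane. The position of these genes in the build of the lists was not used here, so no gene is named for any loop or domain.

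Loops were spread over most of chromosome 11, and no small group of bins accounts for the density. Fixed bins of 1 Mb from position 0 gave 118 bins wholly inside the listed part of the chromosome, which ran from 2995001 to 121816000 in mm9, the build of all coordinates given here. A loop was counted in the bin that held the midpoint between its anchors. The median bin held 11 loops (95% CI from order statistics 7 to 14) and the mean bin 13.3 loops. The same median of 11 was found on chromosome 19, and the other medians were lower, down to 3 loops on chromosome 14. With bins filled by left or right anchors, shifted by 500 kb, or with each contact counted once, chromosome 19 had the higher median. There were 40 bins with 20 or more loops, a share of 33.9% (95% Wilson interval 26.0 to 42.8%). On the other autosomes this share was between 4.60 and 21.1%. These 40 bins held 1060 loops, or 67.7% of the 1566 loops whose midpoint lay in a whole bin. Across all autosomes, 330 of 2398 bins reached 20 loops. Chromosome 11 supplied 12.1% of those bins and 4.92% of all bins.

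**Figure D1:**
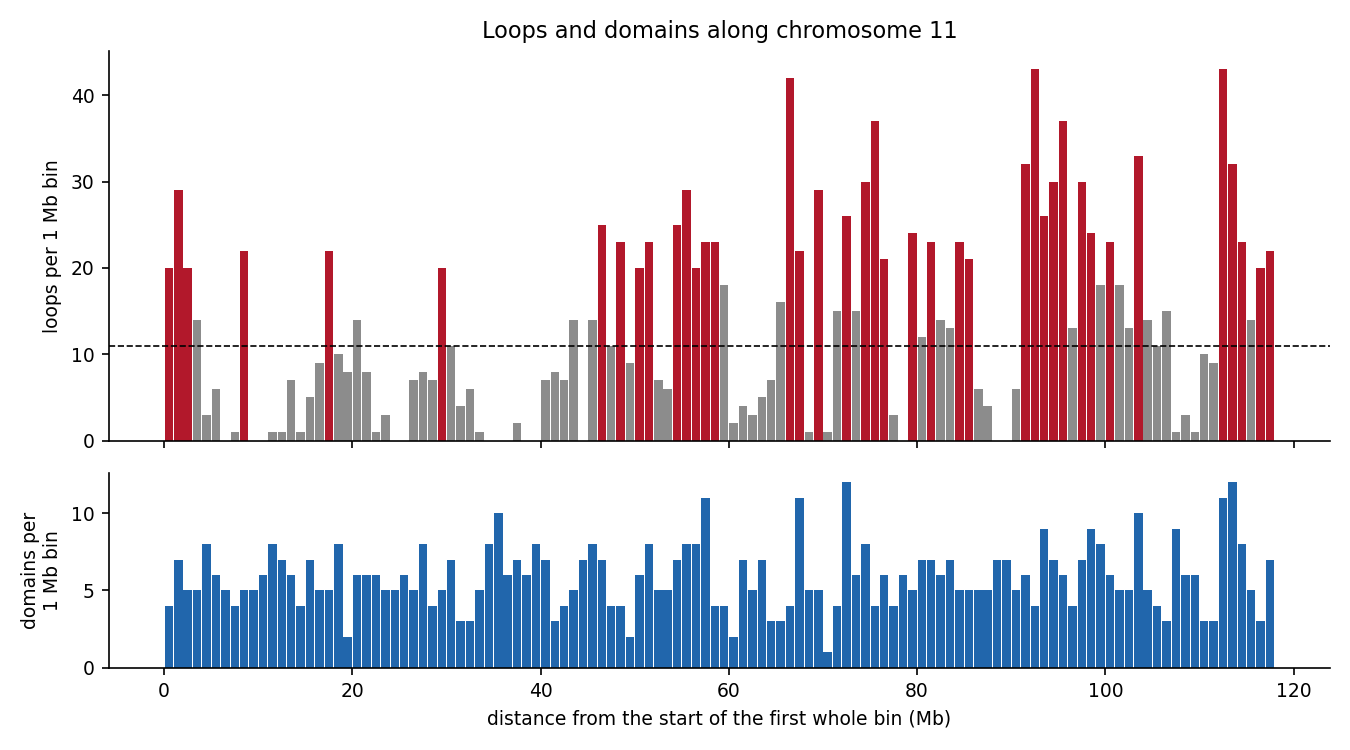
Loops (upper panel) and domains (lower panel) in each 1 Mb bin of chromosome 11, plotted by distance in Mb from the start of the first whole bin, which begins at 3 Mb. Red bars are the 40 bins with 20 or more loops and the dashed line is the median of 11 loops; domains per bin range from 1 to 12 and show no such contrast between the parts of the chromosome.

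By count, the fullest bins of chromosome 11 were not the fullest of the autosomes. The bins at 95 to 96 Mb and 115 to 116 Mb each held 43 loops, and the bin at 69 to 70 Mb held 42. An exact Poisson interval for 43 loops, which covers counting only, runs from 31.1 to 57.9, so the order of these 3 bins is not resolved. The bins at 78 to 79 Mb and 98 to 99 Mb followed with 37 loops each. On chromosome 12 a single bin held 57 loops, on chromosome 10 the highest count was 50 and on chromosome 17 it was 47. These counts lie inside the interval for 43 loops, so their order against the fullest bins of chromosome 11 is not resolved either. With the fullest 10% of bins left out of every autosome, an alternative added after the data were seen, chromosome 11 still ranked first, at 10.8 loops per bin against a highest of 9.96 elsewhere. The fullest 10%, 12 bins, held 26.7% of the loops of chromosome 11, the lowest such share among the 19 autosomes, where it reached 39.3% on chromosome 14.

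Bins without loops were few but were grouped. Of the 118 bins, 14 (11.9%) held no loop, against shares of 12.3 to 35.1% on the other autosomes. They lay at 9 to 10, 12 to 14, 27 to 29, 37 to 40, 41 to 43, 47 to 48, 81 to 82 and 91 to 93 Mb. A further 10 bins held 1 loop each. The longest runs of bins with 0 or 1 loop were 12 to 16 Mb, with 2 loops in 4 bins, and 36 to 40 Mb, with 1 loop in 4 bins. The longest stretch without any anchor lay inside the second of these and beyond it, from 36792501 to 40350000, a length of 3.56 Mb. It nevertheless held 20 whole domains. This was the shortest such maximum among the autosomes, whose longest anchor-free stretches measured 3.84 to 9.75 Mb. The next stretches on chromosome 11 were 90592501 to 93742000, with 17 whole domains, and 40580001 to 43250000, with 16.

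**Figure D2:**
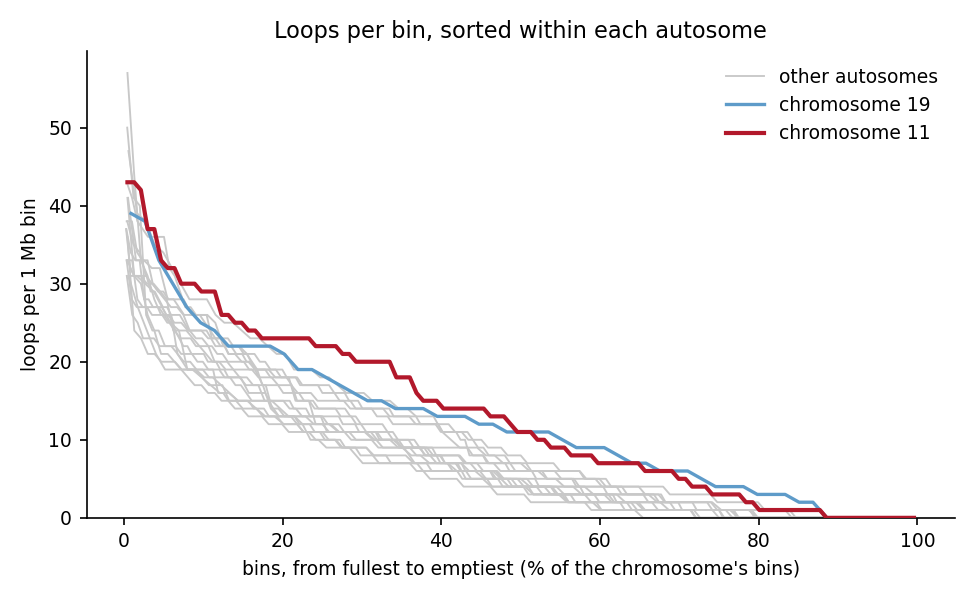
Loops per 1 Mb bin, sorted from fullest to emptiest within each autosome and plotted against the share of that autosome's bins; chromosome 11 is red, chromosome 19 blue and each other autosome grey. The red curve starts at 43 loops, below the 57 loops of the fullest bin on chromosome 12, and crosses 20 loops after about 33.9% of its bins.

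The bins changed along the chromosome. In windows of 10 Mb, chosen after the bins had been seen, the 4 windows from 10 to 50 Mb held 4.70, 7.30, 5.70 and 7.70 loops per Mb. The 7 windows from 50 to 120 Mb each held between 13.9 and 19.9 loops per Mb. The first listed part, below 10 Mb, held 13.1 loops per Mb. Domain density over the same windows ran from 5 to 6.60 per Mb, and the loop-sparse windows from 10 to 50 Mb, at 5.40 to 6.20 domains per Mb, lay inside the range of the loop-dense windows. The window at 10 to 20 Mb showed the gap between the lists most plainly. It held 57 domains, of which 46 (80.7%) had no loop inside, while 4 of 57 domains (7.02%) had none at 50 to 60 Mb.

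Loops and domains were only loosely related from bin to bin. Pearson's r between loops and domains per bin was 0.23 and Spearman's rho 0.12 over the 118 bins, given as a description, since neighbouring bins are not independent. On the other autosomes r ran from -0.13 to 0.36. Loop counts of neighbouring bins on chromosome 11 had an r of 0.49, inside the range of 0.14 to 0.60 elsewhere. Bins with 0 or 1 loop held 6.13 domains on average and bins with 20 or more held 6.78. The classes between held fewer, 4.94 in bins with 2 to 9 loops and 5.30 in bins with 10 to 19. In the other autosomes the values were 5.41, 4.78, 5.20 and 5.70 domains, from the class with fewest loops to that with most. The median domain size on chromosome 11 was 460, 510, 380 and 350 kb in the same order of classes.

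Short loops set chromosome 11 apart from the other autosomes in value, and long loops did not. The median span, the distance between anchor midpoints, was 148 kb (95% CI 140 to 156 kb). The quartiles lay at 80.5 and 280 kb, and the shortest and longest spans were 18 and 1995 kb. Only chromosomes 7 and 17, both at 145 kb, had a lower median. Loops under 100 kb made up 33.9% of the chromosome's loops (534 loops, 95% Wilson interval 31.6 to 36.3%), against 19.4 to 32.0% elsewhere. Their density was 4.49 per Mb, and the highest value on another autosome was 3.39. From 100 to 200 kb the density was 3.71 per Mb, again first, with 3.49 on chromosome 19. From 200 to 500 kb it was 3.84 per Mb, second to chromosome 19 at 3.97. From 500 kb upward it was 1.20 per Mb, rank 9 of 19 and close to the median of 1.18 over the other autosomes. Loops over 1 Mb numbered 41, or 2.60% of the chromosome's loops, and 15 autosomes had a higher share.

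The coordinate grid of the anchors bears on these spans. Anchors in the list are 10000 bp wide and start on grids of 2, 5 or 10 kb. On chromosome 11 the spans ran from 18 to 198 kb on the 2 kb grid. They ran from 45 to 1995 kb on the 5 kb grid and from 20 to 1950 kb on the 10 kb grid, so the ranges overlapped. On chromosome 11 the 2 kb grid held 443 loops (28.1%, 95% Wilson interval 26.0 to 30.4%), the highest share of any autosome, with a range of 15.0 to 26.1% elsewhere. Its density of 3.73 loops per Mb was also the highest, above 2.67 on chromosome 7. On the 5 kb grid chromosome 11 had 5.70 loops per Mb and chromosome 19 had 5.76. On the 10 kb grid the values were 3.82 and 3.94, so chromosome 19 was first on both coarser grids. Median spans within grids were 76 kb, 170 kb and 250 kb. The first ranked 12 of 19 from the highest and the others both ranked 17, with 165 to 250 kb on the 5 kb grid and 240 to 355 kb on the 10 kb grid elsewhere.

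**Figure D3:**
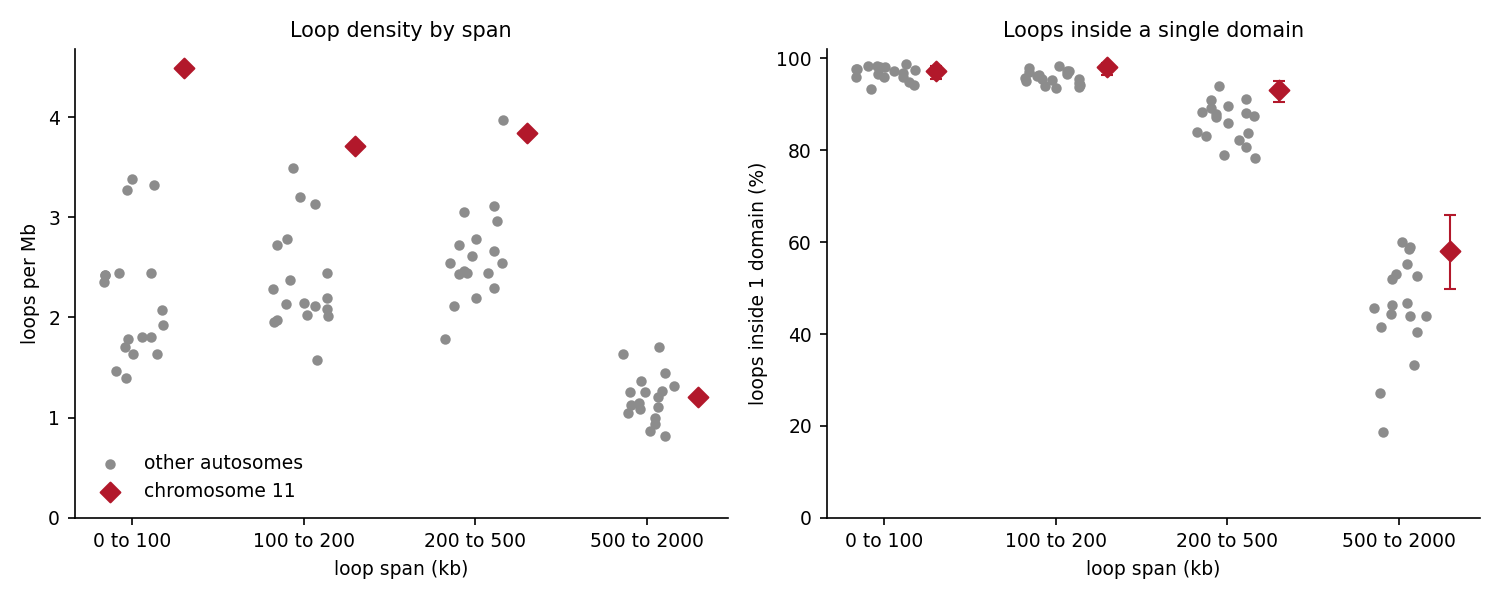
Loop density (left, loops per Mb) and share of loops inside a single domain (right, %) by loop span in kb, for chromosome 11 (red diamonds; bars on the right are 95% Wilson intervals) and the other 18 autosomes (grey points). Chromosome 11 is highest in density under 200 kb, at 4.49 and 3.71 loops per Mb, and lies among the others from 500 kb at 1.20; the inside-domain share is lowest from 500 kb on every autosome.

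Spans were shorter in bins with more loops. The median span was 134.5 kb in bins with 20 or more loops, 152 kb in bins with 10 to 19 loops and 220 kb in bins with 2 to 9. The same order held in the other autosomes pooled, at 150, 190 and 240 kb. By window of 10 Mb the order was not kept. Medians were 150 and 144 kb in the loop-sparse windows at 30 to 40 and 40 to 50 Mb, 144 to 145 kb from 50 to 80 Mb, and 190 kb at 80 to 90 Mb, where loops were dense. They were lowest at 90 to 100 Mb with 118 kb and highest at 20 to 30 Mb with 235 kb. The 2 kb grid held 37.7% of loops in the former window and 10.96% in the latter.

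Hubs, the places where several loops meet, were numerous on chromosome 11 but seldom extreme. Overlapping anchors were merged into 1417 anchor regions, 11.9 per Mb. A region with 5 or more loops is called a hub here. There were 126 hubs, 8.89% of the regions (95% Wilson interval 7.52 to 10.5%), rank 5 among the autosomes. The range elsewhere was 4.57% on chromosome 13 to 10.3% on chromosome 4. This share and its rank depended on how anchors were merged: it was 0.244% (rank 12) when only identical anchors were joined and 21.3% (rank 1) when anchors within 10 kb were. Per Mb, hubs were denser than on any other autosome, at 1.06 against at most 0.968 on chromosome 17. Regions with a single loop made up 45.4%, the lowest share of the 19. Each region took part in 2.22 loops on average, above the 1.84 to 2.19 of the other autosomes. The highest number of loops at 1 region was 10, whereas 13 autosomes had a region with more, up to 15.

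The 5 regions with 10 loops each lay in 4 bins. At 69210001 to 69237500 a hub sent 6 loops to higher and 4 to lower coordinates, reached 10 partner regions and had spans of 30 to 590 kb. It had no other hub among its partners, and 6 of its 10 loops lay inside a single domain. At 79022001 to 79044000 the 10 loops ran to 7 partner regions, 5 of which were hubs, and 7 loops ran to lower coordinates. Its midpoint lay 5.50 kb from the nearest domain boundary. At 94790001 to 94810000 the hub reached 10 partners with a median span of 127.5 kb, and its midpoint was 5 kb from a boundary. The other two lay close together in the bin at 115 to 116 Mb. The hub at 115567501 to 115592500 had 5 loops in each direction. The hub at 115662501 to 115682500 had 9 loops to lower and 1 to higher coordinates. All 10 loops of each of these hubs lay inside a single domain.

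Most hubs lay in bins with many loops. Of the 126 hubs, 97 (77.0%) lay in bins with 20 or more loops and 0 in bins with 0 or 1 loop, which the count of loops itself largely fixes. Of the loops counted in bins, 67.7% lay in the former bins and 0.639% in the latter. The window at 70 to 80 Mb had 23 hubs among 157 regions (14.6%), the most of any window, and the window at 20 to 30 Mb had 2 among 80 (2.50%). The share of hubs followed loop density from window to window only in part. It was 2.50, 5.08 and 7.79% in the loop-sparse windows from 20 to 50 Mb. In the whole, loop-dense windows from 50 to 120 Mb it was 7.94 to 14.6%. The window at 10 to 20 Mb, with fewest loops per Mb, went the other way at 11.9% (5 of 42 regions). So did the loop-dense listed part above 120 Mb, at 3.33% (1 of 30 regions). The listed part below 10 Mb, at 13.1 loops per Mb, had 6.59% (6 of 91 regions), below the loop-sparse window at 40 to 50 Mb. At 100 to 110 Mb, the window with most loops per Mb, the share was 8.43%. There were 45 one-sided hubs, whose loops all ran the same way. They made up 35.7% of hubs, a share that 10 autosomes exceeded, and 20 ran to higher and 25 to lower coordinates. Hubs looped to other hubs in 91 of 126 cases, and 105 loops joined a pair of hubs. Loops with at least 1 hub among their anchors numbered 663 (42.1%), within the range of 27.5 to 48.2% elsewhere. Hubs had their midpoint within 20 kb of a domain boundary in 40.5% of cases and regions with a single loop in 23.0%. Both values lay inside the ranges of the other autosomes, 21.3 to 45.7% for hubs and 17.7 to 24.3% for regions with a single loop.

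When anchor regions that loops connect, directly or through a chain of any number of other regions, were grouped, 225 networks resulted. Of these, 42 had 10 or more regions and together held 1133 loops (72.0%), while 108 networks were pairs of regions with no other partner. The network with most regions, 54, extended from 68397501 to 70580000 with 71 loops and 4 hubs. The next, with 51 regions, extended from 98080001 to 101262500 with 67 loops, and another, with 44 regions, from 49450001 to 52164000 with 55 loops and 7 hubs. The longest loop of the first network spanned 750 kb, although the network extended over 2182.5 kb. These 3 networks held 12.3% of the chromosome's loops. On 3 autosomes a network had more than 54 regions, up to 75 on chromosome 1.

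Domains were also listed at the highest density on chromosome 11, whereas outermost domains were not. There were 5.86 domains per Mb, against 4.57 to 5.52 on the other autosomes, and the median size was 390 kb (95% CI 370 to 430 kb). Domains that held no other domain numbered 424, at 3.57 per Mb, again the highest of the 19, with a highest of 3.42 elsewhere. Domains inside no other domain numbered 226. Their density was 1.90 per Mb, rank 18 of 19, and they were 32.5% of the domains, the lowest share of any autosome, with 36.6 to 47.5% elsewhere. These outermost domains were large, with a median of 735 kb (95% CI 620 to 860 kb) that only 2 autosomes exceeded. A covered position lay inside 3.17 domains on average, rank 2 of 19. With 1 chromosome against 18, an exact permutation of chromosome labels cannot give a p below 0.0526, so these differences were not tested.

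**Figure D4:**
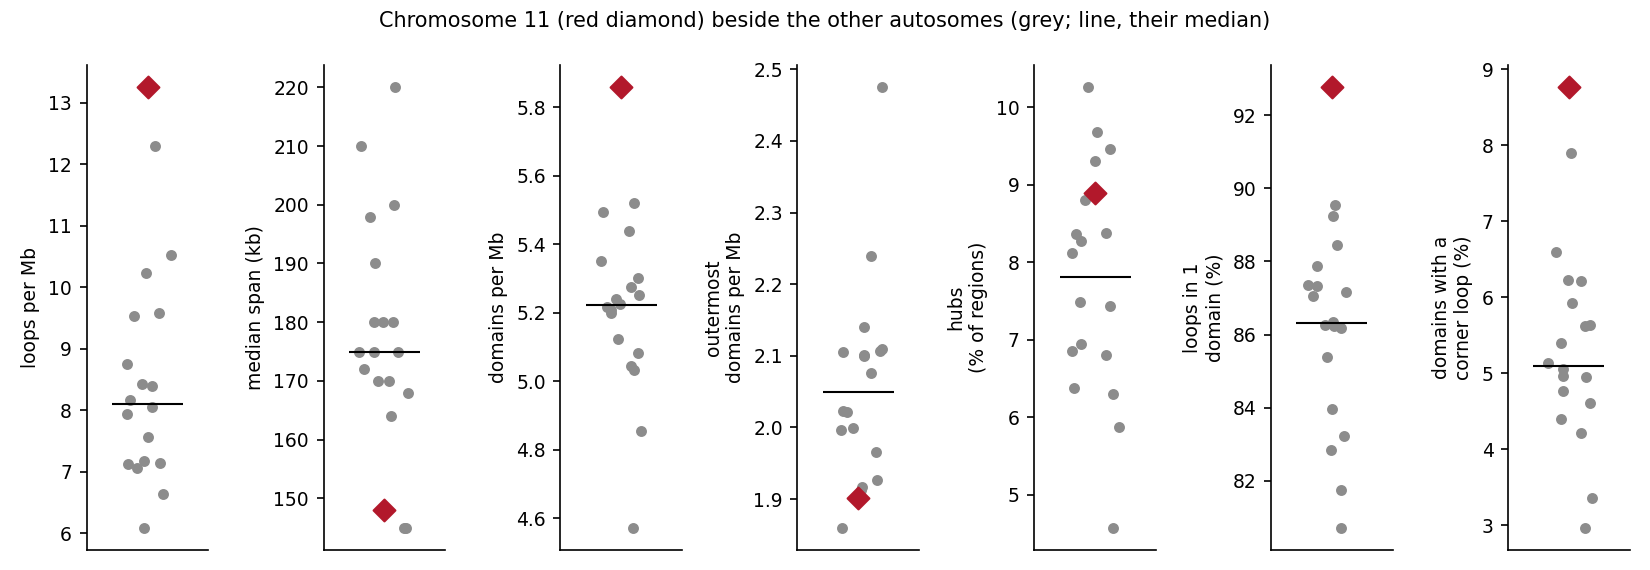
Chromosome 11 (red diamond) and each of the other 18 autosomes (grey points, with their median as a line) for loops per Mb, median loop span in kb, domains per Mb, outermost domains per Mb, hubs as % of anchor regions, loops inside a single domain in %, and domains with a corner loop in %. The axes do not start at 0; chromosome 11 is highest for loops (13.2), domains (5.86), loops inside a domain (92.8%) and corner loops (8.76%), rank 5 for hubs (8.89%) and next to lowest for outermost domains (1.90).

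The domains with most loops were large ones that lay inside no other domain. The domain at 115875001 to 117695000 measured 1820 kb and held 46 loops and 13 smaller domains. The domain at 58655001 to 60365000 held 41 loops in 1710 kb. The domain at 114915001 to 115875000 also held 41 loops, in 960 kb, which is 4.27 loops per 100 kb, and the domain at 115865001 to 117235000, which overlaps the first, held 41 too. None of these had a loop at its corner, but of all 146 domains from 800 kb upward only 5 (3.42%) had one. At the other end, 225 domains (32.3%, 95% Wilson interval 29.0 to 35.9%) held no loop, that is, none with both anchor midpoints inside. Only chromosome 19, at 32.0%, had a lower share, and the highest elsewhere was 56.9%. The largest domain without a loop was 91025001 to 92985000, of 1960 kb, which held 10 smaller domains. The second largest, at 12475001 to 14175000, measured 1700 kb and held 7.

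Loops stayed within domains on chromosome 11 more often than on any other autosome. For 1460 of the 1574 loops, at least 1 domain contained the midpoints of both anchors. That is 92.8% of loops (95% Wilson interval 91.4 to 93.9%). The other autosomes ranged from 80.7% on chromosome 4 to 89.5% on chromosome 7. Because short loops are frequent on this chromosome, the share was also taken by span. Under 100 kb it was 97.2%, rank 11 of 19. From 100 to 200 kb it was 98.2% and from 200 to 500 kb 93.2%, rank 2 in both classes. From 500 kb it was 58.0%, rank 4. Chromosome 11 was therefore first in the pooled share without being first in any class. In the bins with 20 or more loops, 95.5% of its loops lay inside a single domain, and in such bins of the other autosomes pooled the share was 88.4%. The 114 loops in no single domain had a median span of 555 kb, against 140 kb for those inside.

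Anchors lay near domain boundaries slightly more often than on most autosomes. Midpoints of 725 of the 2464 distinct anchors were at most 20 kb from a boundary. This was 29.4% of anchors (95% Wilson interval 27.7 to 31.3%), second to chromosome 13 at 29.8%. Boundaries were also densest here, at 7.57 per Mb, and 18% of the listed span lay within 20 kb of a boundary, the highest of the 19. The share of anchors divided by the share of span was 1.63, rank 5 of 19, with 1.19 to 1.74 elsewhere.

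Corner loops, which join the start of a domain to its end, had their highest share on chromosome 11, by a margin that depended on the distance allowed. Of the 696 domains, 61 had a loop whose anchor midpoints both fell within 20 kb of the matching domain end. They make up 8.76% (95% Wilson interval 6.88 to 11.1%). The other autosomes ranged from 2.97 to 7.90%, the highest being chromosome 9, whose value lies inside that interval. With a distance of 10 kb the share over all domains was 3.02%, and the highest elsewhere was 2.97%. Among domains under 200 kb, 21 of 87 had a corner loop, 24.1% (95% Wilson interval 16.4 to 34.1%), while the other autosomes had 3.85 to 12.9%. These 21 domains lay in 18 different bins and used 22 distinct loops, 9 of them on the 2 kb grid. With a distance of 10 kb, 6 of the 87 had a corner loop (6.90%), and the highest share elsewhere was 5.17%, so the gap to the other autosomes was much narrower at that distance. In larger domains chromosome 11 was among the others: its share was 9.06% from 200 to 400 kb, 5.56% from 400 to 800 kb and 3.42% from 800 kb, with ranks of 3, 2 and 6.

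**Figure D5:**
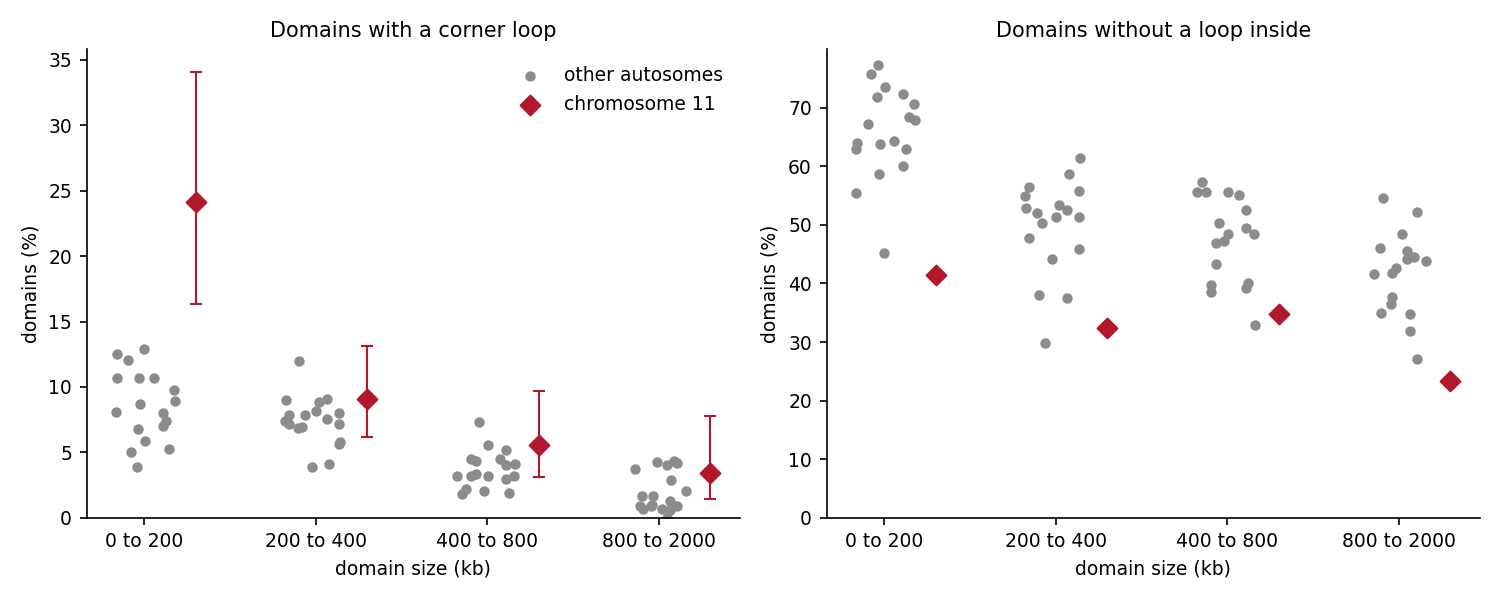
Share of domains with a corner loop (left, %) and without a loop inside (right, %) by domain size in kb, for chromosome 11 (red diamonds; bars on the left are 95% Wilson intervals) and the other 18 autosomes (grey points). Under 200 kb the corner share of chromosome 11 is 24.1% and the highest grey point is 12.9%; in the larger classes the left-hand diamonds lie among the grey points. On the right, chromosome 11 is below every grey point under 200 kb (41.4%) and from 800 kb (23.3%).

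Corner loops were also compared within bins of like loop number. In bins with 20 or more loops, 39 of 271 domains had a corner loop on chromosome 11 (14.4%) and 216 of 1654 on the other autosomes pooled (13.1%). In bins with 10 to 19 loops the shares were 8.20 and 9.86%, so in these classes the values were near each other. In bins with 2 to 9 loops they were 7.19 and 3.47%, and in bins with 0 or 1 loop 0.680 and 0.204%. The first of these pairs rests on 11 corner domains of chromosome 11 and the second on 1. Domains without a loop had a lower share on chromosome 11 in every class. In bins with 20 or more loops it was 5.90% on chromosome 11 and 6.89% elsewhere. In bins with 10 to 19 loops the values were 17.2 and 18.4%, and in bins with 2 to 9 loops 41.2 and 47.1%. In bins with 0 or 1 loop they were 84.4 and 90.7%. The number of loops that sets the class of a bin also largely fixes this share. Of the 61 corner domains, 51 held no other domain and 7 lay inside no other. Over all 696 domains of the chromosome these numbers were 424 (60.9%) and 226 (32.5%). Some of the 61, such as 34640001 to 35490000, also count as holding no loop, since a corner loop may end just outside its domain.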

How the data were processed

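Micro-C was done on 18 samples, 9 untreated and 9 in auxin for 4 h, per the labels. The deposited files are 1 list of loops and 1 list of domains, both of the whole series, whose values are coordinates in bp. Their build is mm9, per the submitters' processing notes. The callers, filters, resolutions and the samples that entered the lists are not given in the sources used here. The number of columns with values of an unmapped sample was 0.

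Python 3.11.15 with numpy 2.4.6, pandas 2.3.3, scipy 1.17.1 and matplotlib 3.10.9 was used, and the measures were tested on simulated lists. Coordinates are counted from 1. Grids were read from anchor starts: both at multiples of 10 kb, either at 2500 or 7500 bp past one (5 kb), or the rest (2 kb). By this rule a loop of the 2 kb grid whose starts both fall on multiples of 10 kb is counted on the 10 kb grid. Densities used the span from the first to the last listed coordinate. Anchors were merged where they overlapped by at least 1 bp.

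Regions named are the 5 bins with most loops, the longest empty runs and anchor-free stretches, the hubs, networks and domains with most loops, and the longest loops. The chromosome, the measures and this rule were chosen with earlier results of these data known. There are no replicates behind any value. Wilson and Poisson intervals cover counting only, and loops that share anchors are not independent. Intervals over bins, that of the median bin included, treat bins as independent, which neighbouring bins are not, so they may be too narrow. No genome of the build was used, so no sequence is printed. The X chromosome was left out.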

Additional observations from a re-analysis of the deposited data

How the results depend on the processing

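The 10 measures of chromosome 11 were recomputed under 33 alternatives, of which 1 was added after the data were seen, and 14 stayed within the interval of the value or within 1.5 times of a count. By grid, loop density was 3.73 (2 kb), 5.70 (5 kb) and 3.82 (10 kb) per Mb, each keeping part of the loops by construction, and the chromosome ranked first, second and second. It ranked first with each contact counted once (12.7 per Mb), with the span taken from position 0 (12.9) or as the part covered by domains (13.3), and without the fullest 10% of bins (10.8). The median bin held 10.5 to 11 loops under 4 ways of binning, in all of which chromosome 19 was higher, so first place for the median bin is not stable. The fullest bin held 41 to 44 and ranked from 4 to 7 among the autosomes. Its place also moved. With left anchors the fullest bins started at 69 Mb (42 loops), 78 and 115 Mb (40 each), and the bin at 95 Mb held at most 35. With bins shifted by 500 kb the fullest started at 115.5 Mb. The median span was 76, 170 and 250 kb on the 2, 5 and 10 kb grids.

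The share of hubs depended most on how anchors are merged. It was 0.244% with identical anchors (rank 12 of 19), 21.3% with anchors within 10 kb (rank 1), 7.22% with each contact counted once (rank 7) and 1.24% on the 5 kb grid alone (rank 14). Domain density was 3.57 per Mb for domains that hold no other and 1.90 for those inside no other, with median sizes of 280 and 735 kb, and these alternatives remove domains by construction. Anchors near a boundary were 18.3% at 10 kb and 46.1% at 40 kb, rank 4 of 19 at both. Loops inside a single domain were 64.5% when only domains that hold no other were used, second of 19. With only domains inside no other they were 92.8%, the main value by construction, since every domain is or lies in one of these. That alternative is counted among the 14 that stayed. Corner loops were found for 3.02% of domains at 10 kb and 22.8% at 40 kb, first of 19 at both, with highest values elsewhere of 2.97 and 22.3%.

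No paired analysis was possible because neither list gives values by sample; samples in both groups carry the numbers 1 to 9. The unknown depth limits what an absent loop means, since a contact under the caller's threshold is missing from the list.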

Other observations

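Of the 41 loops over 1 Mb on chromosome 11, the bin at 56 to 57 Mb held 6, the most of any bin. The 3 longest loops of the chromosome spanned 1995 kb (anchors starting at 111507501 and 113502501), 1965 kb (3307501 and 5272501) and 1950 kb (55330001 and 57280001). The largest domain of the chromosome measured 1965 kb, so the first could not lie inside a domain and the others had little or no room. None of these 3 loops lay inside a single domain. Loops of 1940, 1900 and 1790 kb ran beside the last of them, with left anchors between 55327501 and 55387500 and right anchors between 57117501 and 57290000. The 1950 and 1940 kb loops share their left anchor and have adjoining right anchors, so they are not independent contacts.

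Domain boundaries that lie off the 5 kb grid numbered 145 of 900 on chromosome 11, a share of 16.1%, the highest of the 19 autosomes, with 6.71 to 15.9% elsewhere. The name of the domain list says that domains were merged, and how merging set these coordinates is not given in the sources used here.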
